A study of Mus musculus with 12 samples.

Results

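The Gadd45, Btg and Plk genes examined here are 8 mouse genes for growth arrest and stress signalling: Gadd45a, Gadd45b, Gadd45g, Btg1, Btg2, Plk2, Plk3 and Cdkn1a. They were chosen by symbol, and all 8 were found among the 21519 protein-coding genes of a RefSeq gene table. The readout was a list of c-Fos peaks from CUT&RUN, which sequences the DNA fragments that a nuclease tethered to an antibody releases from nuclei. A peak was assigned to a gene when its midpoint lay inside the gene or within 100 kb of it. By this rule 1 of the 3294 peaks on the 20 assembled chromosomes (19 autosomes and X) belonged to these genes, and it lay at the start of Gadd45b.

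Nuclei came from CA1, a pyramidal cell field of the hippocampus, of C57BL/6 mice aged 3 to 4 weeks with the genotype CaMK2a-Cre/+; LSL-Sun1-GFP/+. CaMK2a-Cre, active mainly in excitatory forebrain neurons, switches on a green fluorescent tag of the nuclear envelope, and 50000 sorted tagged nuclei entered each reaction. There were 12 samples, 3 replicates in each of 4 groups: c-Fos antibody after kainic acid, IgG after kainic acid, c-Fos antibody after PBS and IgG after PBS, each taken 2 to 3 h after injection. Kainic acid activates kainate-type glutamate receptors and makes neurons fire strongly, and rabbit IgG was the negative control. All 4 groups carried the Cre and the tag. The authors' list compares c-Fos with IgG after kainic acid and names its peaks replicated. It gives no replicate number and is attached to 1 c-Fos sample after kainic acid. From its name it was taken as 1 list for the whole group. The list gives positions and widths and no value per peak or per sample, so read depth is unknown, no spread between replicates can be given, and no test over samples was possible. Peaks after PBS were not analysed here, so nothing below says whether a peak depended on kainic acid. The list holds no expression values, so the identity of the sorted nuclei was not checked against marker genes. A gene without a peak is one where none passed the authors' unknown threshold, which is not the same as no binding.

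c-Fos joins with Jun proteins to form AP-1, a transcription factor that neurons make within a short time of strong firing and that binds the heptamer TGAGTCA or its complement TGACTCA. The 3 Gadd45 genes encode small nuclear proteins that bind cell cycle kinases, the replication clamp PCNA and the stress kinase MAP3K4. In mouse hippocampus Gadd45b is known as an activity-induced gene linked to DNA demethylation at Bdnf and Fgf1. Btg1 and Btg2 encode antiproliferative proteins that recruit the CCR4-NOT deadenylase, which shortens the tails of mRNAs. Plk2 and Plk3 encode polo-like kinases, of which Plk2 is induced by activity and weakens overactive synapses in rat hippocampal neurons. Cdkn1a encodes p21, an inhibitor of cyclin-dependent kinases and a classical target of p53.

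The DNA just before the gene starts is shown for the gene whose promoter lay in a peak and for others that had none. The 250 bases before the start are printed for the Gadd45 genes, for Btg2 and Plk2, which share a CRE, and for the distal start of Cdkn1a, which carries the p53 matches. They are RefSeq sequences of GRCm38.p6 (the mm10 assembly), read 5′ to 3′ on the strand of the gene. Capitals mark TATAAA in Gadd45b and Gadd45g, the CRE (TGACGTCA) in Btg2 and Plk2, and matches to the p53 decamer, the repeated unit of a p53 binding site, in Gadd45a and Cdkn1a.
Gadd45b, chr10:80929841-80930090, plus strand: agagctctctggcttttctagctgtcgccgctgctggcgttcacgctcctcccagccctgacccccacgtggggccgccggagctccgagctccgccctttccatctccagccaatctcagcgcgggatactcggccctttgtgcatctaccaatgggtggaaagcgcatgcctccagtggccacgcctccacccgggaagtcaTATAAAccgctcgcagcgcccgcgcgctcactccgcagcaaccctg
Gadd45a, chr6:67037408-67037657, minus strand: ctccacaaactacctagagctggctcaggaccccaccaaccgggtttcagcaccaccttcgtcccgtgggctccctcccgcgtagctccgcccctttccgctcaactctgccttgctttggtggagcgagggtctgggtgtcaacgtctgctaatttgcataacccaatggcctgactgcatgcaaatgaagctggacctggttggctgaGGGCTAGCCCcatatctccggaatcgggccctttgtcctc
Gadd45g, chr13:51846425-51846674, plus strand: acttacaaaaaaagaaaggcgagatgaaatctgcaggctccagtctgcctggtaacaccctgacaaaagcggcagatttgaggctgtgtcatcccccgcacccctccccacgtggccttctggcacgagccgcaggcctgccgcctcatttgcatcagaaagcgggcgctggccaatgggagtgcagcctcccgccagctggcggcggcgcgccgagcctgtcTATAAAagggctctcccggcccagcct
Btg2, chr1:134079156-134079405, minus strand: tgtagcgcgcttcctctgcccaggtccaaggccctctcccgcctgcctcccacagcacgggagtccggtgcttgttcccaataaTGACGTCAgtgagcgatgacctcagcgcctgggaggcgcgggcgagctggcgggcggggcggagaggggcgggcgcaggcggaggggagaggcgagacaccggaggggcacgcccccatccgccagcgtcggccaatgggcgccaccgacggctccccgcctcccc
Plk2, chr13:110394794-110395043, plus strand: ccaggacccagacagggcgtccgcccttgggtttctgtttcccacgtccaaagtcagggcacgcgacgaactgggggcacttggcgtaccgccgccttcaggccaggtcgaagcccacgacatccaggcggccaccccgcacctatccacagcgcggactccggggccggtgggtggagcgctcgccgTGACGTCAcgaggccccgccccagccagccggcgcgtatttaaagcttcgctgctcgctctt
Cdkn1a, chr17:29090729-29090978, plus strand: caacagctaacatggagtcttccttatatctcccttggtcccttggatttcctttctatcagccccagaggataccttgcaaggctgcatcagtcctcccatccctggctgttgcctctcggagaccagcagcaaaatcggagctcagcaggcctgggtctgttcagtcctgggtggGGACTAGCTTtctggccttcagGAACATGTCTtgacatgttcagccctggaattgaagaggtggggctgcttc

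The first question was which of the 8 genes lay near c-Fos peaks. Gadd45b had 1 peak and the other 7 genes had none inside or within 100 kb, so 1 of 8 (12.5%) had a peak. By the same rule 21.8% of all protein-coding genes had one (4693 of 21519). The 8 genes are short, from 1.80 kb for Gadd45g to 9.74 kb for Cdkn1a, against a median of 17.4 kb for all protein-coding genes. Among the 7676 protein-coding genes of 10 kb or less, 15.2% had a peak. A count of 1 among 8 genes is close to either share and is given as a description only.

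The Gadd45b peak covered the start of the gene and the DNA before it. It ran on chromosome 10 from 80928488 to 80930889 (mm10), and the gene itself runs from 80930091 to 80932204 on the plus strand. The midpoint of the peak lay 402.5 bp upstream of the start. Of its 2402 bp, 1603 bp (66.7%) lay before the start and 799 bp lay inside the gene, where they covered 37.8% of the gene body. The peak thus held the promoter and the first part of the gene and ended before the gene did.

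Gadd45b therefore belongs to a small set of genes whose promoter was inside a peak. Its promoter window, taken from 250 bases before to 50 bases after the start, lay wholly inside the peak, as did at least 1 window of 1.09% of the protein-coding genes with a promoter entry (189 of 17273). A peak touched a window of 1.21% of these genes (209). No promoter window of the other 7 genes was touched. Of the 198 protein-coding genes with a start inside a peak, 124 (62.6%) had the midpoint of the peak upstream of the start, as Gadd45b had. The midpoint lay a median of 236 bp from the start of these genes, and 24.7% of them had it farther away than Gadd45b.

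**Figure D1:**
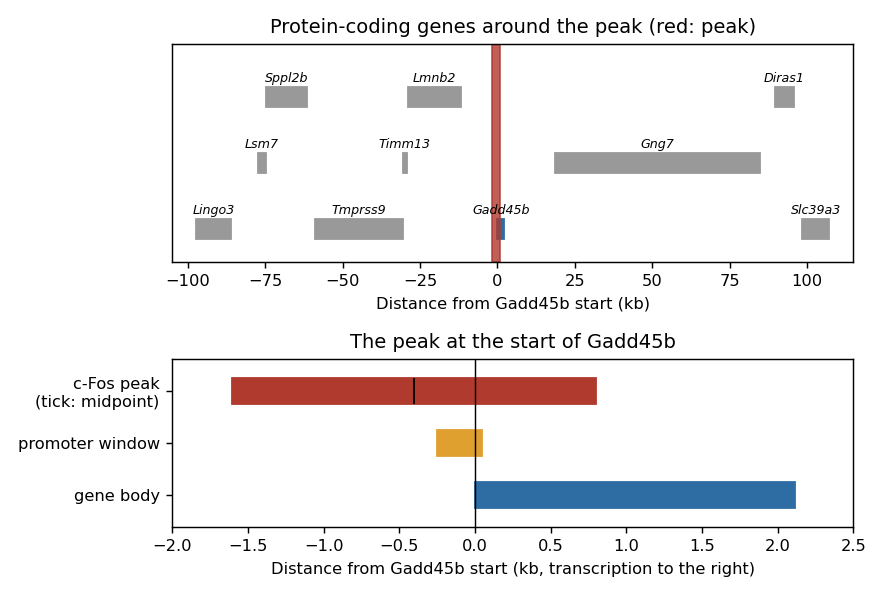
The upper panel maps the protein-coding genes with any part within 100 kb of the peak midpoint against distance from the start of Gadd45b in kb, with the peak in red. The lower panel enlarges the start and shows that the peak covers the whole promoter window and 799 bp of the gene body, with its midpoint 402.5 bp upstream of the start.

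The peak was wide for this list. Its 2402 bp compare with a median of 1341.5 bp over all 3294 peaks (quartiles 1097 and 1698.75 bp), and 235 peaks (7.13%) were as wide or wider. Width is not a measure of how much c-Fos is bound. It is the only c-Fos peak within 1000 kb of Gadd45b, and the next one downstream lay 2044 kb from the gene, with 65 protein-coding genes in between.

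The peak sits in a gene-rich stretch, and 9 other protein-coding genes lie within 100 kb of its midpoint. The nearest of them are Lmnb2, which encodes the nuclear lamina protein lamin B2, 11.4 kb away, and Gng7, which encodes a G protein gamma subunit, 18.9 kb away. Timm13, a mitochondrial import factor gene, was 28.7 kb away and Tmprss9, a serine protease gene, 30.2 kb away. Sppl2b, Lsm7, Lingo3, Diras1 and Slc39a3 lay 61.0 to 98.9 kb away. Each of these 9 genes has this peak as its own single peak within 100 kb. This follows from how they were picked and from the lack of another peak within 1000 kb of Gadd45b. Gadd45b was the nearest protein-coding gene to the midpoint, but position alone does not show which gene a peak acts on.

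Gadd45a and Gadd45g, the closest relatives of Gadd45b, had no peak within 100 kb, and they differed in how far away the nearest one lay. The peak nearest to Gadd45a (chromosome 6, 67035096 to 67037407) was 2436 kb downstream and 1476 bp wide. The nearest peak on the upstream side of Gadd45a was 2821 kb away. Gadd45a was the most distant of the 8 genes, and 4.67% of protein-coding genes had their nearest peak farther away still.

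The peak nearest to Gadd45g (chromosome 13, 51846675 to 51848475) was 277 kb upstream and 1690 bp wide. That peak was centred 90.5 bp from Shc3, which encodes an adaptor protein of neurons, and 3 protein-coding genes (Cks2, Secisbp2 and Sema4d) lay between it and Gadd45g. Of all protein-coding genes, 57.7% had their nearest peak farther away than Gadd45g did. On the downstream side the nearest peak was 458 kb away, with no protein-coding gene in between. Within 1000 kb Gadd45g had 3 peaks, Gadd45b 1 and Gadd45a 0, against a median of 2 over all protein-coding genes. The family was thus spread from a peak on the promoter to none within 1000 kb.

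**Figure D2:**
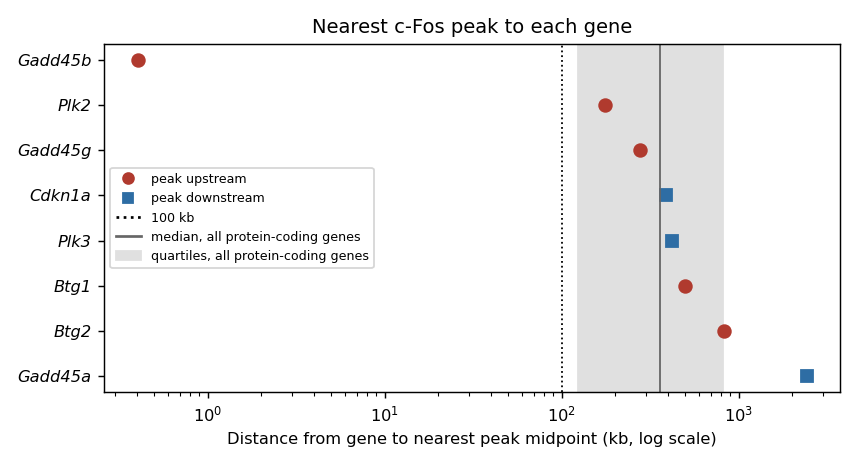
Each point gives the distance in kb, on a log scale, from 1 of the 8 genes to the midpoint of its nearest c-Fos peak, with circles for peaks upstream and squares for peaks downstream of the gene. Gadd45b stands at 0.403 kb and the other 7 genes lie beyond the dotted 100 kb line, from 176 kb for Plk2 to 2436 kb for Gadd45a; the grey band and line mark the quartiles and median (361 kb) of all protein-coding genes.

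Neither Btg gene had a peak within 200 kb. Btg1 (chromosome 10, 96617001 to 96622813, plus strand) had its nearest peak 495 kb upstream, 1309 bp wide, in a stretch without other protein-coding genes up to Btg1. The gene nearest to that peak was Eea1, an early endosome gene, 76.1 kb from it. On the downstream side the nearest peak of Btg1 was 1100 kb away. Btg1 and Gadd45b share chromosome 10 and had 1 peak each within 1000 kb.

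Btg2 (chromosome 1, 134074865 to 134079155, minus strand) had its nearest peak 831 kb upstream, inside Ppp1r12b, a myosin phosphatase subunit gene. On the other side the nearest peak lay 944 kb downstream and 0.433 kb from Ppp1r15b, which encodes a subunit of the phosphatase of translation factor eIF2. The gaps around Btg2 held 16 protein-coding genes on the upstream side, counting Ppp1r12b, which holds the peak, and 15 on the downstream side. Of all protein-coding genes, 24.2% had their nearest peak farther away than Btg2 did, and 40.3% farther away than Btg1 did.

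Plk2 was the first gene outside the window and lay beside a dense group of peaks. Its nearest peak, on chromosome 13 from 110218238 to 110219546, was centred 176 kb upstream of the gene (110395044 to 110400844, plus strand) and inside Rab3c, a synaptic vesicle gene. Gadd45b, the gene inside the window, and Plk2, the nearest one outside it, are therefore separated by a wide gap, from 0.403 to 176 kb. Downstream of Plk2 the first peak was 226 kb away, on chromosome 13 from 110625434 to 110628990. At 3557 bp it was wider than the Gadd45b peak, and no protein-coding gene lay between it and Plk2.

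Within 1000 kb Plk2 had 18 peaks, 5 upstream and 13 downstream, against a median of 2 for all protein-coding genes. As many or more were found at 28 genes (0.130%), Plk2 included. Genes beside Plk2, such as Gapt, share these peaks, so the count describes the stretch and not Plk2 alone. Within 500 kb Plk2 had 7 peaks against a median of 1, and 0.999% of genes had as many or more. Both windows were added after the data were seen, and Plk2 is singled out as the highest of the 8 genes in each. Of the 18 peaks, 4 lay inside Pde4d, a cAMP phosphodiesterase gene, and 1 inside Rab3c. The other 13 were outside protein-coding genes, and Plk2 was the nearest protein-coding gene for 4 of them, at 226 to 398 kb. Actbl2, an actin-related gene, was the nearest for the other 9. The 18 peaks were 1036 to 3557 bp wide with a median of 1613.5 bp, and 13 were wider than the median of the list.

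Plk3 (chromosome 4, 117128655 to 117133963, minus strand), the stress-responsive relative of Plk2, had 1 peak within 1000 kb. That peak was 888 bp wide, centred 420 kb downstream and inside Mmachc, a vitamin B12 metabolism gene. It was the narrowest of the 8 nearest peaks. On the upstream side the next peak lay 1836 kb away, with 42 protein-coding genes in between. Plk3 has 7 other protein-coding genes within 100 kb. None of them had a peak within 100 kb either, which follows largely from the 420 kb between Plk3 and its nearest peak. The Plk genes thus differed in their surroundings, with 18 peaks within 1000 kb of Plk2 and 1 within that distance of Plk3.

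Cdkn1a (chromosome 17, 29090979 to 29100722, plus strand) also had 1 peak within 1000 kb. It was centred 390 kb downstream, on chromosome 17 from 29489319 to 29491322, and 2004 bp wide. That peak lay 0.465 kb from Pim1, which encodes an inducible serine/threonine kinase, and 8 protein-coding genes lay between it and Cdkn1a. On the upstream side the nearest peak was 2459 kb away, inside Ergic1. The 4 other protein-coding genes within 100 kb of Cdkn1a (Stk38, Srsf3, Rab44 and Cpne5) had no peak within 100 kb. That too follows largely from the 390 kb between Cdkn1a and its nearest peak.

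**Figure D3:**
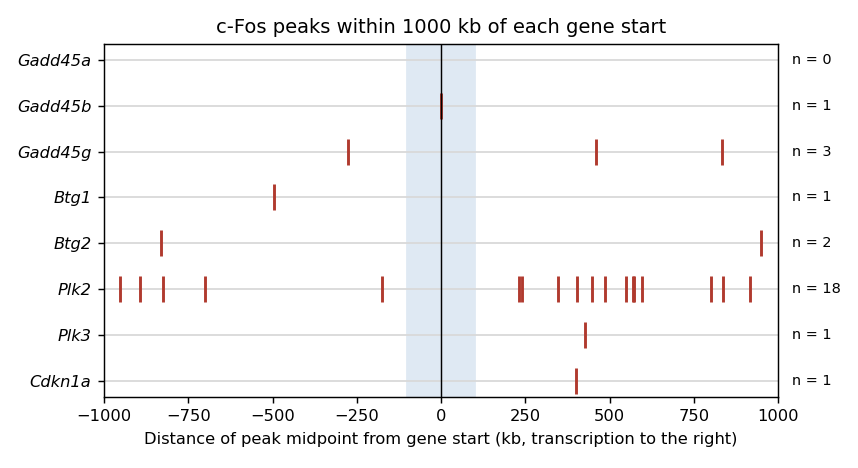
Each row shows 1 of the 8 genes with its start at 0, and each red tick is the midpoint of a c-Fos peak within 1000 kb on either side, in kb along the direction of transcription, with the shaded band marking 100 kb. A single tick lies in the band, at Gadd45b; Plk2 has 18 ticks, Gadd45g 3, Btg2 2, Gadd45b, Btg1, Plk3 and Cdkn1a 1 each, and Gadd45a 0.

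Over the 8 genes the nearest peak was upstream in 5 (Gadd45b, Gadd45g, Btg1, Btg2 and Plk2) and downstream in 3 (Gadd45a, Plk3 and Cdkn1a). The matching share of all protein-coding genes was not computed, so this split is a description only. The median distance was 405 kb for the 8 genes and 361 kb for all protein-coding genes, and 3 of the 8 genes lay nearer than 361 kb. The share with a peak depended on the window in both sets. With a window of 25 kb, 1 of 8 genes (12.5%) had a peak, against 10.1% of all protein-coding genes, and with 50 kb 1 of 8 against 14%. At 200 kb it was 2 of 8 (25%) against 34.4%, with Plk2 added. At 500 kb it was 6 of 8 (75%) against 60%, and at 1000 kb 7 of 8 (87.5%) against 80.7%. Other ways of linking peaks within 100 kb left the 8 genes at 1 of 8, where all protein-coding genes stood at 21.9% with any overlapping base, 21.8% with neighbouring peaks merged, 12.6% with the wider peaks and 8.63% with the nearest gene alone. The steady 1 of 8 follows largely from the 176 kb or more between the other 7 genes and their nearest peaks.

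**Figure D4:**
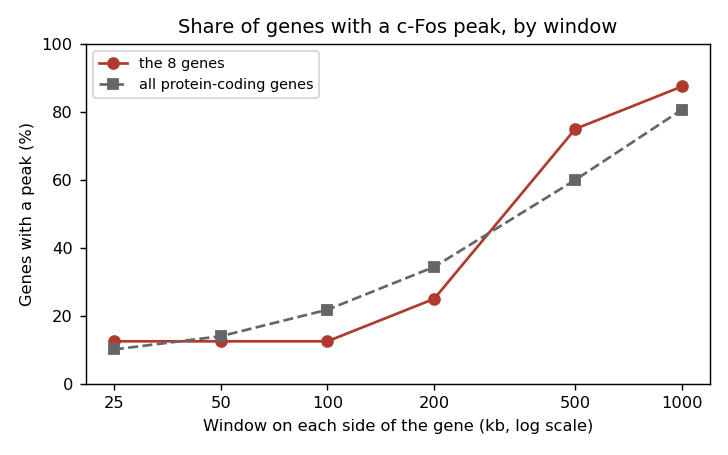
The share of genes with a c-Fos peak, in percent, is plotted against the window on each side of the gene in kb on a log scale, for the 8 genes (circles) and all protein-coding genes (squares). The 8 genes stay at 12.5% up to 100 kb, where all protein-coding genes reach 21.8%, and stand at 75% against 60% at 500 kb.

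The promoters of all 8 genes, those printed above and the others, were then searched on both strands, from 250 bases before to 50 after each start. Cdkn1a has 2 starts in the table, so the 8 genes gave 9 windows of 300 bases. No window held the AP-1 heptamer, spelled TGAGTCA or TGACTCA, including the Gadd45b window inside the peak. It was held by 15.7% of the 236 promoter windows of protein-coding genes touched by a peak, against 4.69% of all 21044. The Gadd45b window makes up 12.5% of the peak, and the rest of the peak's sequence was not read, so the absence of the letters there says nothing about AP-1 elsewhere in the peak.

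The CRE, spelled TGACGTCA and bound by CREB family proteins, was found in Btg2 and Plk2. Counted from the gene start, with negative positions before it, it began at position -166 in Btg2 and -62 in Plk2. Of the windows touched by a peak 9.75% held a CRE, against 2.26% of all. Neither the Btg2 nor the Plk2 window was touched. Its 5-letter core TGACG, which each CRE contains once on either strand, occurred in the windows of Btg1, Btg2, Plk2 and Plk3, and in 49.6% of the touched windows and 23.8% of all. It was found in none of the Gadd45 windows. The CRE core was thus seen in Btg and Plk genes, all without a peak. It was missing from Gadd45b and also from Gadd45a, Gadd45g and Cdkn1a, which had no peak either. With a peak at 1 gene only, no link between the core and a peak can be read from this.

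The p53 decamer was matched in Gadd45a at position -40 and at 2 places in the distal window of Cdkn1a, at positions -73 and -51. It was present in 6.78% of the windows touched by a peak and 7.37% of all. The CArG box, the site of serum response factor, was found in none of the 9 windows and in 1.54% of all. TATAAA, a search added after the sequences were seen, occurred in Gadd45b, Gadd45g and Btg1 at positions -46, -27 and -26, and in 6.78% of the touched windows and 12.7% of all. The Gadd45b window had 62.0% G and C and 24 CpG dinucleotides, close to the 62.3% and 21 of Gadd45g and above the median of 56.7% and 13 over all windows. Gadd45a had 61.0% and 14 CpG, and the distal Cdkn1a window had the lowest values of the 9, 54.7% and 2.

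Genes related to these families by function were examined in 7 lists. Of 85 such genes 23 (27.1%) had a peak inside or within 100 kb, against the 21.8% of all protein-coding genes. Of 9 further Btg, Tob, Plk and Cdkn1 family genes 2 had a peak. Btg3, an antiproliferative relative of Btg1, had a peak inside the gene, 1.3 kb from its start, and Cdkn1b, which encodes the CDK inhibitor p27, had one 68.7 kb away. Of 20 p53 target genes 5 had a peak. Xpc, a DNA damage recognition gene, had a peak centred 0.549 kb from a gene end, Bbc3, which encodes the cell death protein PUMA, had one at 11.6 kb, and Mdm2, the ubiquitin ligase gene that restrains p53, had 2 with the nearer at 78.5 kb.

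Partners of the encoded proteins had peaks in several cases. Of 10 genes of stress MAP kinase signalling 4 had one, among them Map2k4 and Map2k6, with 2 peaks each and at least 1 inside the gene. Map3k4, whose product binds Gadd45 proteins, had 1 at 15.2 kb. Of 12 genes of DNA demethylation and its repair, a list that also holds the DNA methyltransferase gene Dnmt3a, 2 had a peak. These were Tet2 (2 peaks) and Tet1 (1 peak), which encode enzymes that oxidise methylcytosine. Both had a peak inside the gene. A peak inside the gene was found at 5.52% of all protein-coding genes (1187 of 21519), and Map2k4, Map2k6, Tet1 and Tet2 are long genes, from 81.5 kb for Tet2 to 126 kb for Map2k6, against the median of 17.4 kb. Of 14 genes for cyclins, CDKs, Cdc25 phosphatases and PCNA 1 had a peak, Cdc25a at 59.9 kb.

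Of 11 genes linked to Btg proteins, most of them in deadenylation, 5 had a peak. All 5 encode subunits of CCR4-NOT, as do most of the 11 genes. Cnot7, the deadenylase that Btg proteins bind, had its peak at 36.6 kb, Cnot3 at 57.9 kb and Cnot9 at 67.9 kb, and none of the 5 genes held a peak inside. Of 9 substrates and partners of Plk2 and Plk3, 4 had a peak. Fbxw11, a ubiquitin ligase subunit gene, had a peak inside the gene, and Rapgef2, an activator of Rap GTPases that Plk2 acts on, had one at 46.5 kb. Fbxw11 and Rapgef2 are long genes, of 104 and 224 kb, against the median of 17.4 kb for all protein-coding genes. These lists hold 9 to 20 genes each, and their members differ in length from the 8 genes, so their shares are given as counts beside the background and no list was tested.

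**Figure D5:**
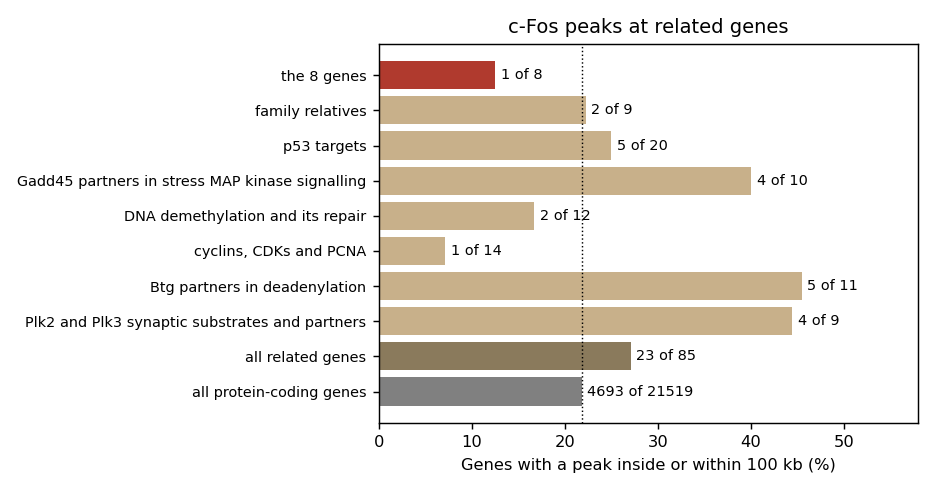
Bars give the percentage of genes with a c-Fos peak inside or within 100 kb for the 8 genes, for 7 lists of related genes, for these lists together and for all protein-coding genes (dotted line, 21.8%), with the counts beside each bar. The shares run from 7.14% for cyclins, CDKs and PCNA to 45.5% for Btg partners in deadenylation, and the 8 genes stand at 12.5%.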

How the data were processed

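The authors deposited 1 peak list, taken as that of the c-Fos samples after kainic acid, with 3 columns (chromosome, start and end), no header and no score. The builds mm10 and sacCer3 and the tools SEACR 1.1, bedtools 2.27.1, Bowtie2 2.2.9 and Trimmomatic 0.36 are named per the submitters' processing notes; settings and the way replicates were combined are not given in the sources used. Starts were converted to 1-based positions, and 1 of 3295 peaks, on an unplaced sequence, was left out. Genes came from the RefSeq table of GRCm38.p6; 340 genes starting below 3000000, which appear to lie on unplaced scaffolds, were left out. Strand and starts came from the RefSeq promoter table, where all 8 genes matched. Distances run from the gene body to the peak midpoint. Genes named beside the 8 are the neighbours of their peaks and, from each list, up to 3 with most peaks, ties by distance; some are not reported here. The 8 genes and the lists were chosen with earlier results of these data known. Counts were computed with Python 3.11.15 and pandas 2.3.3 and checked on planted peaks. No test was made, since the list has no value per sample.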

Additional observations from a re-analysis of the deposited data

How the results depend on the processing

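No paired analysis was possible because peaks came as 1 list without replicate values, so no replicate could be left out either. Of the 8 genes, 1 had a peak with windows of 25 and 50 kb, with the wider peaks alone (1647 peaks), with peaks within 500 bp merged, with any overlapping base, with the nearest protein-coding gene alone and with distances to gene ends. With 200 kb, 2 genes had 1 peak each (2 peaks), and with the windows of 500 and 1000 kb, added after the data were seen, 6 and 7 genes had one; a wider window takes in more peaks by construction. The 4693 protein-coding genes with a peak became 2166 at 25 kb, 3017 at 50 kb, 7395 at 200 kb, 2717 with the wider peaks and 1857 with the nearest gene alone. They were 1165 when genes of 10 kb or less were taken, again an addition after the data were seen; fewer peaks, links or genes enter by construction. The 23 of 85 related genes with a peak became 12 at 50 kb, 35 at 200 kb, 9 with the wider peaks, 9 with the nearest gene alone and 10 at 25 kb. In the same order, the shares of all protein-coding genes were 14%, 34.4%, 12.6%, 8.63% and 10.1%. The related genes were about level with this share at 50 kb, below it with the wider peaks and above it in the others. Their higher share at 100 kb was thus not kept in every setting. Per gene, 55 of 56 peak counts over 7 alternatives kept their value, and Plk2 went to 1 at 200 kb. Most of these counts could not change by construction. The 7 genes without a peak lay 176 kb or more from one, so no setting within 100 kb could give them 1. The steady count of 1 gene in 8 is therefore no measure of robustness. With 1 mismatch allowed, 3 of the 8 genes (Gadd45a, Gadd45g and Btg1) had an AP-1 heptamer, and Gadd45b had none. Such a match was held by 49.3% of all promoter windows and 57.2% of those touched by a peak. Read depth and the authors' threshold are unknown, so weaker peaks are missing from every count.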
